A study of Mus musculus with 12 samples.

Results

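The genes of cholesterol and fatty acid synthesis were followed in AtT-20 cells, a mouse pituitary corticotrope tumour line that expresses pro-opiomelanocortin (Pomc) and its regulator Tpit (Tbx19). The set held 37 genes matched by name among the 16385 genes of the table: 19 of the sterol branch, 13 of the fatty acid branch and 5 regulators of the SREBP pathway. All 37 passed the filter of at least 1 FPKM (fragments per kilobase of transcript, scaled to the library) in at least 2 libraries, as did 12578 genes in all, and no gene of the set was at 0 in any library.

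RNA-Seq was available for 12 libraries, 2 for each of 6 groups. The methods describe pools of Geneticin-resistant colonies in which a retroviral vector drives a Flag-tagged transgene from the CMV promoter, so a pool mixes cells with different insertion sites. All cells were grown with fetal bovine serum, which carries lipoproteins. Pax7 NoTag cells carried a Pax7 labelled as untagged, with no isoform or vector given in the labels. Pax7-465 cells carried a Pax7 cut short in its C-terminal region, and the study presents its mutants as made from the Q+GL- isoform. Pax7-465 then differs from Pax7 Q+GL+ in the GL insert as well as in the truncation, from Pax7 Q-GL- in the Q insert as well and from Pax7 Q-GL+ in both inserts as well, and these differences cannot be told apart here. Isoforms Pax7 Q-GL-, Pax7 Q+GL+ and Pax7 Q-GL+ differ by the presence (+) or absence (-) of the Q and GL inserts in the paired DNA-binding domain. Pax3 cells carried the paralogue Pax3. The study describes Pax3 as Q+GL- and as lacking a C-terminal motif of Pax7 (OAR) that Pax7-465 also lacks. A comparison of Pax7-465 with Pax3 is thus between different proteins and does not isolate the truncation. No group without a transgene was used here, so each comparison is between transgenes. The methods call the replicates biological without naming separate infections or cultures for them, so p-values measure only the spread between these libraries.

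Cholesterol is made from acetyl-CoA through HMG-CoA, mevalonate, isoprenoid units, squalene and lanosterol. Fatty acids are made from malonyl-CoA by fatty acid synthase and then elongated and desaturated. The membrane-bound factors SREBP1 and SREBP2, encoded by Srebf1 and Srebf2, switch on both branches: Scap carries them to the Golgi for cleavage when sterols are low, and Insig1 and Insig2 hold them in the endoplasmic reticulum when sterols are high. Pituitary endocrine cells use these lipids for the membranes of their secretory granules. Fewer cells making a transcript and less transcript per cell cannot be told apart in such bulk libraries.

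Most markers of the cell line were present. Of 10 corticotrope and melanotrope markers, 9 were in the table and 8 reached 1 FPKM in at least 2 libraries. Tbx19 lay between 116 and 143 FPKM and Pomc between 5112 and 10680 FPKM in the 12 libraries, whereas the 2 of 9 markers of other pituitary hormone cells in the table summed to at most 0.146 FPKM and the 2 of 6 fibroblast markers in the table to at most 1.07 FPKM. Pax7 was at 157 and 159 FPKM in Pax7 NoTag cells, at 93.9 to 113 FPKM in the other 4 Pax7 groups and at 0.159 and 0.161 FPKM in Pax3 cells. The Pax7 NoTag libraries stood apart: their FPKM summed to 627305 and 666609, against 413794 to 483161 in the other 10, and 733 genes had a value in both Pax7 NoTag libraries but in none of the other 10. Results that rest on them are therefore given separately, after those of the other 10 libraries.

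Across the 10 libraries other than Pax7 NoTag both branches were well expressed and varied little. Median levels per gene ran from 5.89 FPKM for Acacb, the mitochondrial acetyl-CoA carboxylase, to 362 FPKM for Scd2, a stearoyl-CoA desaturase. In the sterol branch they ran from 7.60 FPKM for Tm7sf2, a sterol reductase, to 226 FPKM for Fdps, the farnesyl diphosphate synthase. The highest library exceeded the lowest by a median of 1.40-fold over the sterol genes and 1.31-fold over the fatty acid genes. The widest range was 1.82-fold among the regulators, for Insig2, 1.61-fold in the sterol branch, for Lss, and 1.59-fold in the fatty acid branch, for Elovl5. The narrowest of all 37 genes was 1.12-fold for Fasn, the fatty acid synthase, at 101 to 112 FPKM.

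A single test across the 5 groups other than Pax7 NoTag (moderated F, limma on log2(FPKM + 1), adjusted over all 12578 genes) was passed by 6 of the 37 genes, where 4.78% of all genes passed. In the sterol branch 5 of 19 passed: Lss (lanosterol synthase, adjusted p = 0.00585), Mvk (mevalonate kinase, 0.0122), Nsdhl (a sterol C4 decarboxylase, 0.0227), Mvd (mevalonate diphosphate decarboxylase, 0.0439) and Hmgcs1 (HMG-CoA synthase, 0.0448). In the fatty acid branch 1 of 13 passed, Elovl5, which elongates polyunsaturated fatty acids (adjusted p = 0.0114), and of the 5 regulators none did, nor at an unadjusted p under 0.05. The count of 6 was 3 without the second Pax7-465 library, 3 without the second Pax7 Q-GL+ library and 2 without the first Pax7 Q-GL- library, and it was 4 with the Pax7 NoTag libraries out of the fit and 17 after quantile normalization.

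The promoters of the genes that passed are shown because the sterol genes share a known set of control elements. RefSeq windows of GRCm38.p6, from 250 bases before to 50 after the start site, matched 30 of the 37 genes, and capitals mark 3 motifs, read on either strand: the sterol regulatory element TCACNCCAC bound by SREBPs, the NF-Y box CCAAT and the E-box CACGTG. None overlapped another in the windows printed.
Hmgcs1: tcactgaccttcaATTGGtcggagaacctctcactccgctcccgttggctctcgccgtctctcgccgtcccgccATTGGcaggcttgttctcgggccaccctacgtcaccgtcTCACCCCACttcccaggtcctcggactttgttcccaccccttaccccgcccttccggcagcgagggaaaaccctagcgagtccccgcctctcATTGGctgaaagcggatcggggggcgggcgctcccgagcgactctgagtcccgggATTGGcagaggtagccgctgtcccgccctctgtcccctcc
Mvk: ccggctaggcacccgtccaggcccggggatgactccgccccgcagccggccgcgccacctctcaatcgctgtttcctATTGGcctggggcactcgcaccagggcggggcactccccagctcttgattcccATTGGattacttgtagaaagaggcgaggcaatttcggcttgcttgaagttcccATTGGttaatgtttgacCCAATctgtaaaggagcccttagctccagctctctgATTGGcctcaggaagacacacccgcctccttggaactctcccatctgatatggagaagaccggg
Lss: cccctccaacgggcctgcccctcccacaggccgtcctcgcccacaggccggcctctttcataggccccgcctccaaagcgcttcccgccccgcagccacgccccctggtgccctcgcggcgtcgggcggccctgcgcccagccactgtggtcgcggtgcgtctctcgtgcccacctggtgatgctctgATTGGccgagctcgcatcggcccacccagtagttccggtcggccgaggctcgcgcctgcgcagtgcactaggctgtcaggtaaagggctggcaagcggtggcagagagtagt
Nsdhl: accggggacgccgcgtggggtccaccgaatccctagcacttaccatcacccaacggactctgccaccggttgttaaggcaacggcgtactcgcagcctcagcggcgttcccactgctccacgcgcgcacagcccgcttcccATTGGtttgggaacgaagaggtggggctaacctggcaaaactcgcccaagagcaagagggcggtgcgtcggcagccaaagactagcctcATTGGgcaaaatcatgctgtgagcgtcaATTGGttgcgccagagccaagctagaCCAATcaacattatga
Mvd: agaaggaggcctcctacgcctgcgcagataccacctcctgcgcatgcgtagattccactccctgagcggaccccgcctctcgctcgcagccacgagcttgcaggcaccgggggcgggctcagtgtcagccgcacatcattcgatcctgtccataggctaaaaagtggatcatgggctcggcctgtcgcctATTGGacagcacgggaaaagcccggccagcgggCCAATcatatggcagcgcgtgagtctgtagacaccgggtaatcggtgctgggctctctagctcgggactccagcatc
Elovl5: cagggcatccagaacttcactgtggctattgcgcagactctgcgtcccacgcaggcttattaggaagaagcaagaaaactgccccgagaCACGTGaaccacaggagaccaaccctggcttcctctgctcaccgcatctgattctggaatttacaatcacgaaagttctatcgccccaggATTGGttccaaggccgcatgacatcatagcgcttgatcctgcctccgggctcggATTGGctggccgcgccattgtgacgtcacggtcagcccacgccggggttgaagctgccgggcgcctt
These windows are chr13:119690101-119690400, chr5:114444019-114444318, chr10:76531355-76531654, chrX:72918271-72918570 and chr9:77917115-77917414 on the plus strand and chr8:122443373-122443672 on the minus strand. Hmgcs1 was the single gene of the 30 with an exact match to TCACNCCAC, which begins 137 bases before its start, and 1.44% of 27025 genes with a window had one. The NF-Y box was found in 14 of 15 sterol genes, 7 of 10 fatty acid genes and 4 of 5 regulators, against 41.1% of all genes with a window. It occurred 5 times in the Mvk window, 4 times in those of Hmgcs1 and Nsdhl, 2 times in those of Mvd and Elovl5 and 1 time in that of Lss. The E-box was found in 6 of the 30 genes, Elovl5 among them, against 8.09% of all genes with a window. A match describes the letters of the window and says nothing of binding in these cells. Only exact matches were sought, so a window without a match is not shown to lack the element.

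Hmgcs1, which makes HMG-CoA for sterols, lies at chr13:119690379-119708260. It was at 86.7 and 78.7 FPKM in Pax7-465 cells, 89.9 and 93.6 in Pax7 Q-GL- cells, 97.4 and 100.3 in Pax3 cells, 107 and 117 in Pax7 Q+GL+ cells and 99.8 and 96.7 in Pax7 Q-GL+ cells. The Pax7-465 libraries were the lowest and the Pax7 Q+GL+ libraries the highest, with no overlap with any other of these groups at either end. The difference of Pax7-465 against Pax7 Q+GL+ cells was -0.44 ± 0.08 on the log2 scale (SE, adjusted p = 0.0194, limma).

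Mvk, at chr5:114444269-114460591, phosphorylates mevalonate. Its level was 19.3 and 19.5 FPKM in Pax7-465 cells, 22.2 and 23.4 in Pax7 Q-GL- cells, 28.5 and 30.6 in Pax3 cells, 23.8 and 25.2 in Pax7 Q+GL+ cells and 24.4 and 23.3 in Pax7 Q-GL+ cells. Pax7-465 was lowest and Pax3 highest, each clear of all other groups, while the 3 Pax7 isoforms lay within 22.2 to 25.2 FPKM. Mvk differed by -0.58 ± 0.08 on the log2 scale between Pax7-465 and Pax3 cells (SE, adjusted p = 0.00435, limma) and by -0.36 ± 0.08 between Pax7 Q-GL- and Pax3 cells (SE, adjusted p = 0.0285, limma).

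Lss, at chr10:76531588-76557138, closes squalene epoxide to lanosterol, the first sterol. It stood at 52.0 and 51.3 FPKM in Pax7-465 cells, 54.0 and 60.8 in Pax7 Q-GL- cells, 82.5 and 82.8 in Pax3 cells, 64.3 and 68.5 in Pax7 Q+GL+ cells and 73.6 and 66.6 in Pax7 Q-GL+ cells. The order was that of Mvk at both ends, with Pax7-465 lowest and Pax3 highest, and only Pax7 Q+GL+ and Pax7 Q-GL+ overlapped. The difference on the log2 scale was -0.67 ± 0.09 in Pax7-465 against Pax3 cells (SE, adjusted p = 0.00325, limma), -0.43 ± 0.09 in Pax7-465 against Pax7 Q-GL+ cells (adjusted p = 0.0498) and -0.52 ± 0.09 in Pax7 Q-GL- against Pax3 cells (adjusted p = 0.00581). The transcript of 4930483K19Rik overlaps an exon of Lss on the other strand, and the strand setting of the counting was not given.

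Mvd and Nsdhl act in the mevalonate and post-lanosterol steps. Mvd (chr8:122433596-122443422) was at 20.6 and 22.7 FPKM in Pax7-465 cells, 25.8 and 25.6 in Pax7 Q-GL- cells, 27.4 and 29.5 in Pax3 cells, 27.3 and 30.9 in Pax7 Q+GL+ cells and 29.1 and 26.9 in Pax7 Q-GL+ cells. Nsdhl (chrX:72918557-72958514) was at 16.5 and 15.4 FPKM in Pax7-465 cells, 18.4 and 19.8 in Pax7 Q-GL- cells, 22.3 and 22.6 in Pax3 cells, 20.4 and 23.3 in Pax7 Q+GL+ cells and 22.2 and 20.3 in Pax7 Q-GL+ cells. For both genes the Pax7-465 libraries lay below the other 8, the Pax7 Q-GL- libraries came next, and the other 3 groups overlapped. Against Pax7 Q+GL+ cells, Pax7-465 cells differed by -0.41 ± 0.08 in Mvd (adjusted p = 0.0337, limma) and by -0.43 ± 0.08 in Nsdhl (adjusted p = 0.0266), and against Pax3 cells by -0.47 ± 0.08 in Nsdhl (adjusted p = 0.0168), all with SE on the log2 scale.

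**Figure D1:**
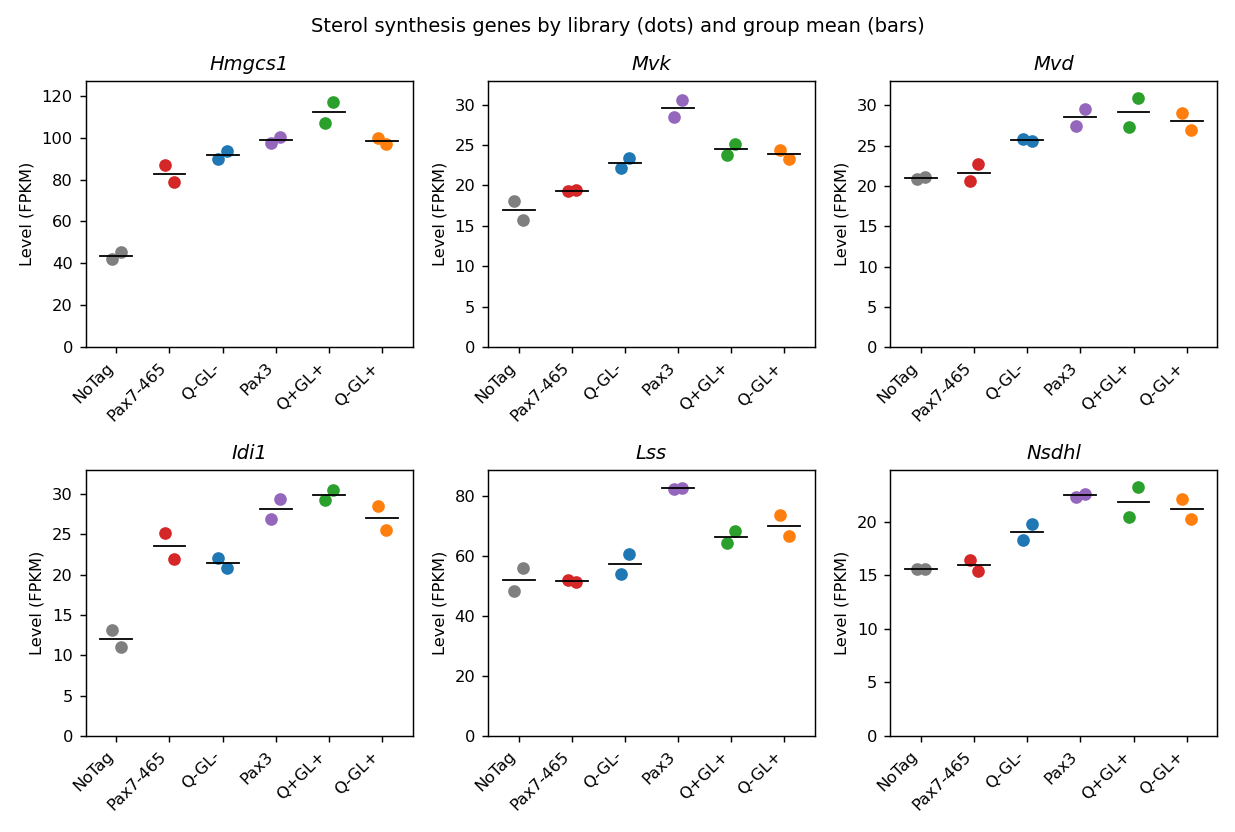
Levels in FPKM (vertical axes, from 0) of 6 sterol genes in each library (dots) of the 6 groups, with the group mean as a bar. Pax7-465 lies below the other groups except Pax7 NoTag for Hmgcs1, Mvk, Mvd, Lss and Nsdhl, and Pax3 is highest for Mvk and Lss, at 82.5 and 82.8 FPKM for Lss.

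The lower levels in Pax7-465 cells ran through most of the 19 genes of the sterol branch. In 8 other sterol synthesis genes, outside this set, the directions were mixed. Of those 8, 5 were below 0 against Pax7 Q+GL+ cells with a median of -0.0065. Against Pax3 cells 4 of the 8 were below 0 with a median of -0.016. Of the 5 groups other than Pax7 NoTag, Pax7-465 had the lowest mean for 17 of 19 sterol genes, 6 of 13 fatty acid genes and 4 of 5 regulators, and it had the highest mean for none of the 37. How often Pax7-465 had the lowest or highest mean over all genes was not counted. Against Pax7 Q+GL+ cells the log2 difference was below 0 for 18 of 19 sterol genes with a median of -0.31, and for 11 of 13 fatty acid genes with a median of -0.17, beside 53% of all genes below 0 and a median of -0.009. Both Pax7-465 libraries lay below both Pax7 Q+GL+ libraries for 15 of 19 sterol genes and 9 of 13 fatty acid genes, against 23.4% of all genes.

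Along the pathway, the 8 genes of the steps up to squalene lay between -0.44 for Hmgcs1 and -0.30 for Pmvk on the log2 scale in Pax7-465 against Pax7 Q+GL+ cells, with Mvd at -0.41. Acat2, which joins acetyl-CoA units, stood at -0.33, Mvk at -0.32, Pmvk, the phosphomevalonate kinase, at -0.30, Idi1 and Fdps at -0.33, and Fdft1, the squalene synthase, at -0.31. Sqle, the squalene epoxidase, was nearer 0 at -0.13, and Lss was at -0.36. Past lanosterol, Nsdhl was at -0.43, Msmo1 at -0.31 and Cyp51, which removes a methyl group, at -0.26. Sc5d, a desaturase, was at -0.24 and Hsd17b7, a keto reductase, at -0.17. The genes nearest 0 were Ebp, a sterol isomerase, at -0.04, Dhcr7, which makes cholesterol from its last precursor, at -0.07, and Stard4, a cholesterol transporter, at -0.08. Tm7sf2 was the single sterol gene above 0, at 0.16 ± 0.13 (SE). The 16 genes of this branch other than Hmgcs1, Mvd and Nsdhl did not pass the test, with SEs of 0.07 to 0.13.

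Few of these differences passed the test one gene at a time. Between Pax7-465 and Pax7 Q+GL+ cells 3 of the 37 genes did, Hmgcs1, Mvd and Nsdhl, all lower, where 1.33% of all genes passed and 0.461% passed as lower. At an unadjusted p under 0.05 there were 18 genes of the set, 13 of them in the sterol branch, beside 1653 of all 12578 genes. The count of 3 became 1 without the first Pax7-465 library and 0 without any 1 of the second Pax7-465 library and the 2 Pax7 Q+GL+ libraries, and 1 with the Pax7 NoTag libraries out of the fit, whereas quantile normalization gave 13, of which 12 were lower. The second Pax7 Q+GL+ library exceeded the first for 17 of 19 sterol genes, against 63.2% of all genes, and the part of that gap in the comparison was not tested.

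The comparison of Pax7-465 with Pax3 cells was added after the data were seen. Again 3 genes passed, Lss, Mvk and Nsdhl, all lower, where 1.16% of all genes passed and 0.302% passed as lower. Both Pax7-465 libraries lay below both Pax3 libraries for 15 of 19 sterol genes but for 5 of 13 fatty acid genes, against 14.9% of all genes. The medians were -0.23 for the sterol genes, -0.07 for the fatty acid genes and 0.01 for all genes. Lss and Mvk passed under all 11 alternatives, with adjusted p between 0.00165 and 0.0371 for Lss and between 0.00116 and 0.0482 for Mvk. Nsdhl no longer passed when any 1 of the 4 libraries was left out (adjusted p up to 0.128). The second Pax3 library exceeded the first for 18 of 19 sterol genes, against 72.2% of all genes, and the part of that gap in the comparison was not tested.

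Between Pax7-465 and Pax7 Q-GL+ cells, also added after the data were seen, 2 genes passed, Lss lower and Elovl5 higher, where 0.795% of all genes passed, 0.294% as lower and 0.501% as higher. Neither passed when any 1 of the 4 libraries was left out or with the Pax7 NoTag libraries out of the fit. All 19 sterol genes were below 0, with a median of -0.20, and both Pax7-465 libraries were below both Pax7 Q-GL+ libraries for 16 of them, against 17.6% of all genes. Between Pax7-465 and Pax7 Q-GL- cells none of the 37 passed in limma or under any alternative, where 0.445% of all genes passed. At an unadjusted p under 0.05 there were 8 of the 37, beside 1354 of all 12578 genes. The sterol genes still had a median of -0.15 there, and both libraries were lower for 13 of 19, against 28.1% of all genes.

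**Figure D2:**
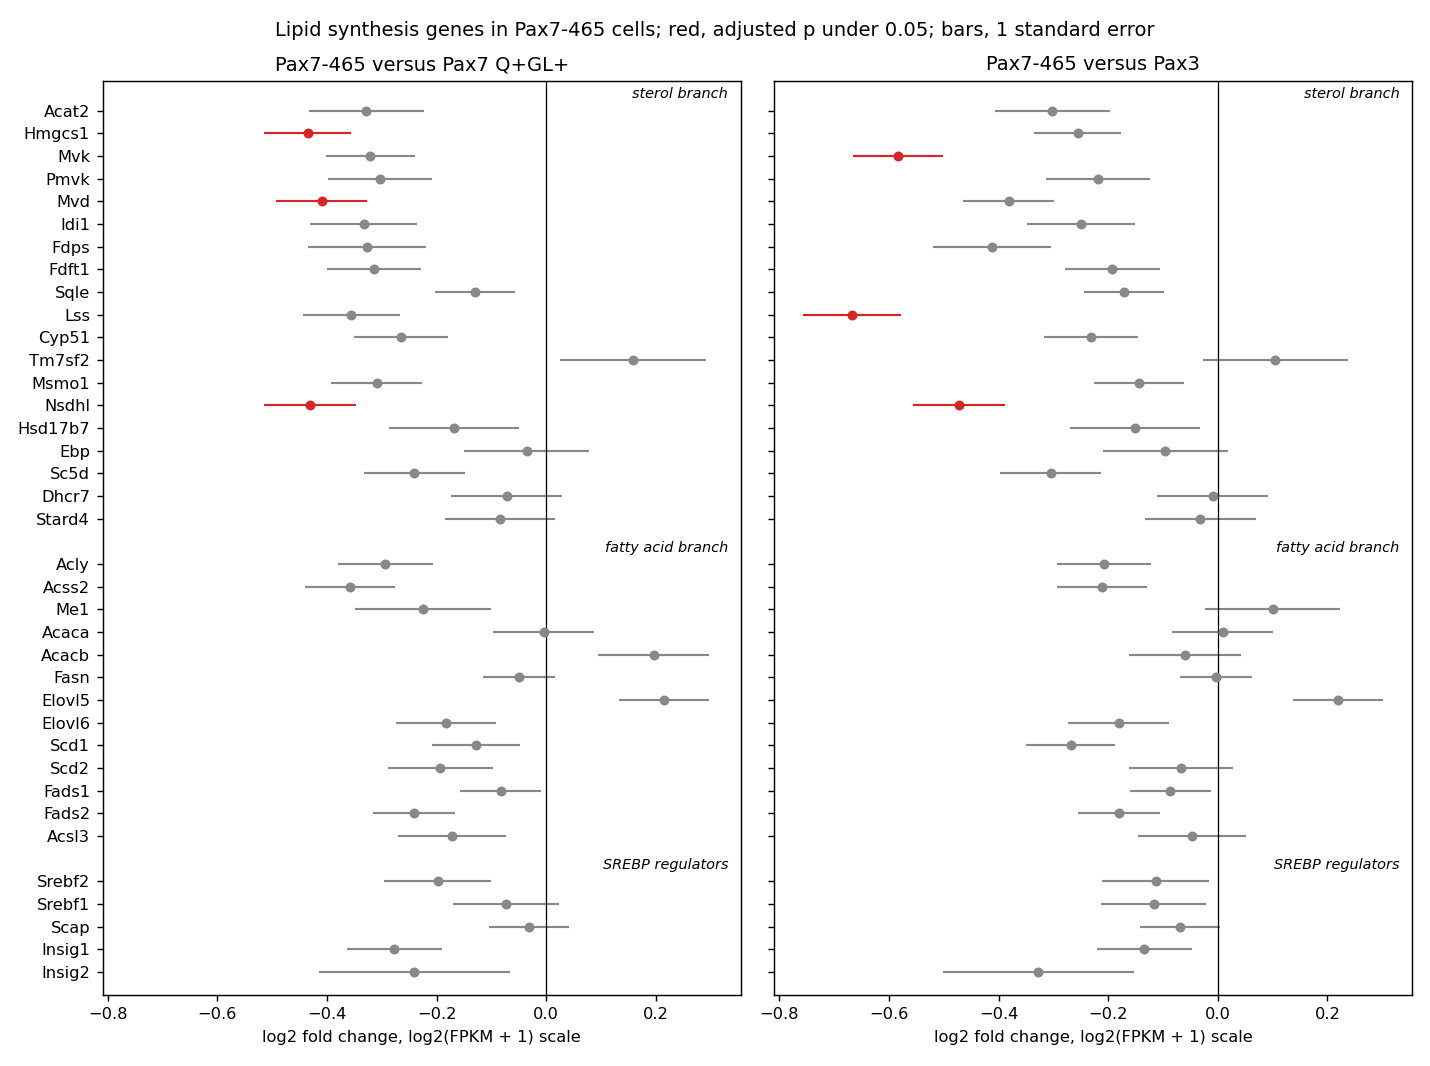
Log2 difference of each gene (points, with 1 SE as bars) in Pax7-465 against Pax7 Q+GL+ cells (left) and against Pax3 cells (right), with red for an adjusted p under 0.05. The sterol genes lie left of 0 except Tm7sf2 in both panels, with Lss at -0.67 and Mvk at -0.58 against Pax3 cells the farthest out, while Elovl5 lies right of 0.

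Among the 10 libraries other than Pax7 NoTag, the medians over both branches were lowest in the 2 of Pax7-465. Each gene's log2(FPKM + 1) was taken relative to its mean over the 10 libraries, and the median over the sterol genes was -0.20 and -0.16 in the Pax7-465 libraries, -0.06 and -0.01 in Pax7 Q-GL-, 0.02 and 0.15 in Pax3, 0.02 and 0.18 in Pax7 Q+GL+ and 0.05 and 0.01 in Pax7 Q-GL+. Over the fatty acid genes it was -0.08 and -0.06 in Pax7-465 and between -0.05 and 0.08 in the other 8 libraries. The sterol medians of the Pax7-465 libraries were below all other 8, and the fatty acid medians of the Pax7-465 libraries were too, by a smaller margin. The difference between the branches was not tested, since the genes of a branch are not replicates.

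**Figure D3:**
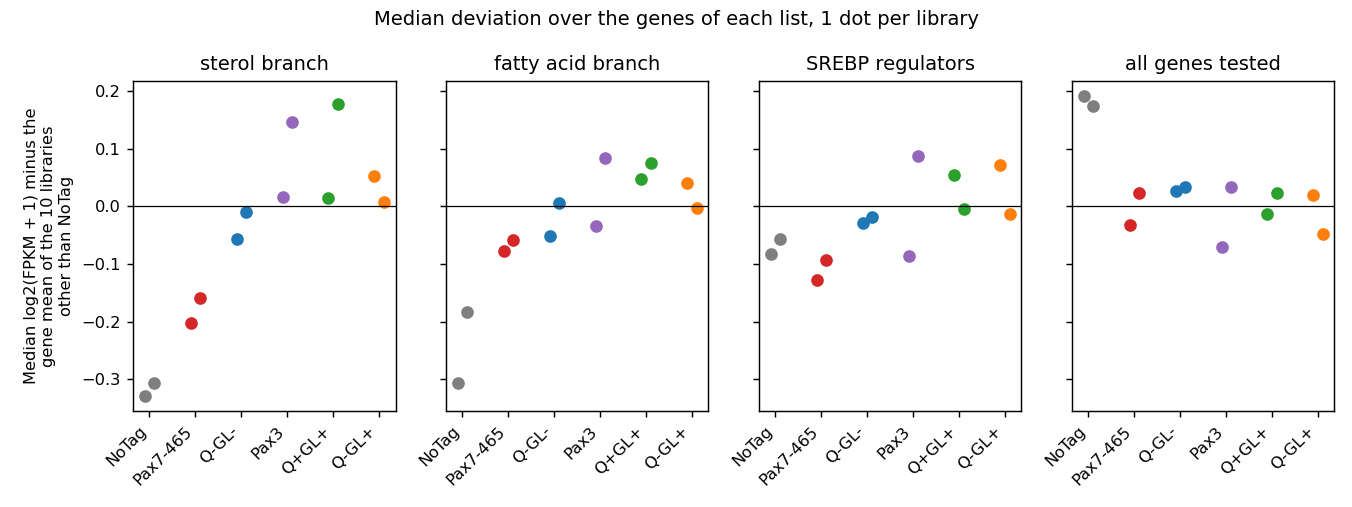
Median over the genes of each list of log2(FPKM + 1) minus the gene's mean over the 10 libraries other than Pax7 NoTag (vertical axis), with 1 dot per library and the 6 groups along the horizontal axis. The Pax7-465 sterol medians are -0.20 and -0.16, and the Pax7 NoTag libraries are lowest for both branches while being highest over all genes.

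Elovl5 (chr9:77917364-77984519) was the 1 fatty acid gene of 13 that passed the test across the 5 groups. It was at 65.1 and 68.1 FPKM in Pax7-465 cells, 75.3 and 69.9 in Pax7 Q-GL- cells, 54.0 and 60.1 in Pax3 cells, 54.4 and 60.2 in Pax7 Q+GL+ cells and 51.2 and 47.4 in Pax7 Q-GL+ cells. Pax7 Q-GL- was highest and Pax7-465 next, both clear of the other groups, and Pax7 Q-GL+ was lowest. Elovl5 was higher in Pax7 Q-GL- than in Pax7 Q-GL+ cells by 0.55 ± 0.08 on the log2 scale (SE, adjusted p = 0.00253, limma), and it passed under all 11 alternatives at 0.49 to 0.60 (adjusted p between 0.000324 and 0.042).

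The comparison of Pax7 Q-GL- with Pax7 Q-GL+ cells asks what the GL insert changes. Elovl5 was the 1 gene of the 37 that passed it, where 4.17% of all genes passed and 3.06% passed as higher. The regulators Srebf2 and Srebf1 both stood at -0.25 there, with adjusted p of 0.192 and 0.175, and Insig2 at 0.44 with 0.202. The medians were -0.07 for the sterol genes and -0.03 for the fatty acid genes, against 0.04 for all genes. Quantile normalization, which moves that last median to 0, gave 7 genes, 1 higher and 6 lower, so the split of directions depends on the scaling.

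In Pax7 Q-GL- cells compared with Pax7 Q+GL+ cells the 1 gene that passed was Idi1 (chr13:8885501-8892451), an isomerase of isopentenyl diphosphate, where 2.15% of all genes passed and 0.358% passed as lower. Idi1 had 22.0 and 20.8 FPKM in Pax7 Q-GL- cells, against 29.3 and 30.5 FPKM in Pax7 Q+GL+ cells, a difference of -0.46 ± 0.10 (SE, adjusted p = 0.0322, limma). The groups did not overlap, and of the 5 groups Pax7 Q-GL- had the lowest mean of Idi1, below that of Pax7-465 with 25.2 and 21.9 FPKM. Idi1 did not pass when any 1 of the 4 libraries was left out, nor without the filter on low values (adjusted p over the alternatives 0.0165 to 0.218), and quantile normalization gave 7 genes, 6 of them lower.

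Against Pax3 cells, 3 genes passed in Pax7 Q-GL- cells, Lss and Mvk lower and Elovl5 higher, where 4.33% of all genes passed, 0.716% as lower and 3.62% as higher. Elovl5 had 75.3 and 69.9 FPKM in Pax7 Q-GL- cells and 54.0 and 60.1 FPKM in Pax3 cells, a difference of 0.34 ± 0.08 (SE, adjusted p = 0.0372, limma). The count was 2 with the Pax7 NoTag libraries out of the fit, 1 without the first Pax3 library, 0 without the first Pax7 Q-GL- library and 1 without the second Pax7 Q-GL- library. Lss failed only without the first Pax7 Q-GL- library, at -0.44 (adjusted p = 0.0755, range over the alternatives 0.00209 to 0.0755). Mvk lost its call in 5 of 11 alternatives, among them each of the 4 left-out libraries (adjusted p 0.00409 to 0.18), and Elovl5 in 6 of 11 (0.0111 to 0.242). Quantile normalization gave 9 genes, 8 of them lower.

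Pax7 Q+GL+ cells were compared with Pax7 Q-GL+ cells, which differ by the Q insert. None of the 37 genes passed in limma, where 0.962% of all genes passed. At an unadjusted p under 0.05 there were 2, beside 1667 of all 12578 genes. The log2 differences of the 37 ran from -0.19 to 0.21, against a median SE of 0.10 over all genes. Between Pax3 and Pax7 Q+GL+ cells none of the 37 passed, where 0.262% of all genes passed. Here 5 had an unadjusted p under 0.05, beside 1285 of all 12578 genes. The differences of the 37 ran from -0.32 in Me1, a malic enzyme that supplies NADPH, to 0.31 in Lss. Between Pax3 and Pax7 Q-GL+ cells, added after the data were seen, none of the 37 passed, where 0.708% of all genes passed. Of the 37, 3 had an unadjusted p under 0.05, beside 1279 of all 12578 genes. The 95% interval of Lss in Pax3 against Pax7 Q+GL+ cells was 0.12 to 0.51 on the log2 scale.

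The other fatty acid genes passed no test among the 5 groups, and some were nearly level. Fasn stayed within 101 to 112 FPKM, Acaca, the cytosolic acetyl-CoA carboxylase, within 36.0 to 43.4 FPKM and Fads1, a desaturase, within 58.6 to 67.4 FPKM. Acly and Acss2, the enzymes that supply acetyl-CoA from citrate and acetate, were lowest in Pax7-465 cells, and both differed from Pax7 Q+GL+ cells by -0.29 ± 0.09 and -0.36 ± 0.08 (SE) without passing the test (adjusted p = 0.144 and 0.0601, limma). Acly was at 117 and 125 FPKM in Pax7-465 cells, against 139 and 159 FPKM in Pax7 Q+GL+ cells. Acss2 was at 14.7 FPKM in both Pax7-465 libraries, against 17.9 and 20.4 FPKM in Pax7 Q+GL+ cells. Neither gene overlapped between these groups. The remaining fatty acid genes, Me1, Acacb, Elovl6, Scd1, Scd2, Fads2 and the acyl-CoA synthetase Acsl3, lay between -0.24 and 0.20 in that comparison and did not pass in any comparison among the 5 groups. Some were farther from 0 elsewhere. In Pax7 Q-GL- against Pax3 cells Me1 stood at 0.42 ± 0.12 and Scd1 at -0.29 ± 0.08 (SE, adjusted p = 0.0844 and 0.0687, limma).

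**Figure D4:**
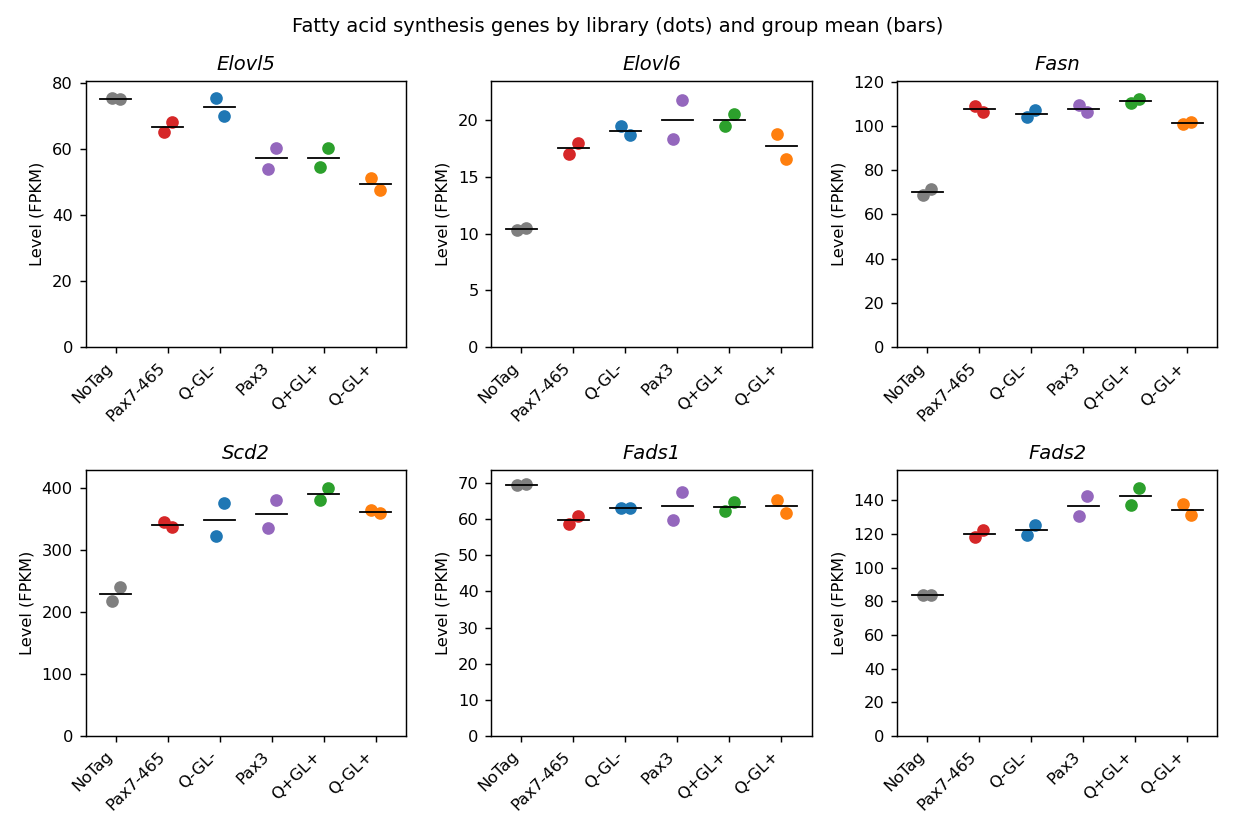
Levels in FPKM (vertical axes, from 0) of 6 fatty acid genes in each library (dots) of the 6 groups, with the group mean as a bar. Elovl5 is lowest in Pax7 Q-GL+ cells at 51.2 and 47.4 FPKM, Fasn and Fads1 are nearly level among the 5 groups other than Pax7 NoTag, and Elovl6, Fasn, Scd2 and Fads2 are lowest in Pax7 NoTag cells.

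None of the 5 SREBP regulators passed a test among the groups other than Pax7 NoTag. Srebf2 lay between 16.5 and 24.0 FPKM in the 10 libraries, Srebf1 between 48.7 and 60.9 FPKM and Scap between 42.9 and 49.1 FPKM. Insig1, itself a known SREBP target, was at 123 and 135 FPKM in Pax7-465 cells, against 152 and 162 FPKM in Pax7 Q+GL+ cells, a difference of -0.28 ± 0.09 (SE) that did not pass (adjusted p = 0.174, limma). Insig2 spread widely between replicates, at 24.0 and 35.5 FPKM in the Pax7 Q-GL- libraries. All 5 regulators were below 0 in Pax7-465 against Pax7 Q+GL+ cells, with a median of -0.20 and a range of -0.28 to -0.03. Transcript levels of Srebf1, Srebf2 and Scap do not measure cleavage of the proteins.

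Other genes of the pathway were described from wider lists. Between Pax7-465 and Pax7 Q+GL+ cells 1.33% of all genes passed in limma. None did of 8 other sterol synthesis, 10 SREBP processing, 20 other fatty acid synthesis and 14 fatty acid oxidation genes. At an unadjusted p under 0.05 there were 3, 1, 2 and 2 in these lists, beside 1653 of all 12578 genes. Of 15 genes of cholesterol uptake, storage and efflux 1 passed, Abcg1, a sterol exporter, at 2.76 and 2.87 FPKM in Pax7-465 cells, against 4.22 and 4.83 FPKM in Pax7 Q+GL+ cells (-0.53 ± 0.10, SE, adjusted p = 0.0194). In Pax7 Q-GL- cells set against Pax7 Q-GL+ cells 2 of the same 15 passed, where 4.17% of all genes did: Nr1h3, the sterol-sensing receptor LXR alpha, was higher by 0.48 ± 0.12 (adjusted p = 0.0402) and Lpcat3, a phospholipid acyltransferase, lower, at -0.42 ± 0.09 (adjusted p = 0.0245).

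The Pax7 NoTag libraries showed the largest differences, in both branches. Against Pax7 Q+GL+ cells 22 of the 37 genes passed, 21 lower and 1 higher, where 46.0% of all genes passed, 9.02% as lower and 36.9% as higher. The median of all genes was 0.18 above 0, so each value below 0 is lower still relative to it, and after quantile normalization 30 of the set were lower and 1 higher. What sets these libraries apart and the transgene they carry cannot be told apart.

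In the sterol branch 13 of 19 genes were lower in Pax7 NoTag than in Pax7 Q+GL+ cells, with a median of -0.42. Hmgcs1 was at 42.0 and 45.6 FPKM in Pax7 NoTag cells, against 107 and 117 FPKM in Pax7 Q+GL+ cells, a difference of -1.34 ± 0.08 (SE, adjusted p = 1.03e-07, limma). Idi1 was at 13.1 and 11.1 FPKM in Pax7 NoTag cells, against 29.3 and 30.5 FPKM in Pax7 Q+GL+ cells, a difference of -1.24 ± 0.10 (SE, adjusted p = 1.37e-06). Msmo1, a sterol C4 methyl oxidase, was at 72.3 and 76.0 FPKM in Pax7 NoTag cells, against 138 and 153 FPKM in Pax7 Q+GL+ cells, a difference of -0.96 (adjusted p = 2.63e-06). For these 3 genes the Pax7 NoTag libraries were below all other 10. The others that passed were Sqle, Hsd17b7, Cyp51, Mvk, Nsdhl, Mvd, Fdft1, Lss, Acat2 and Sc5d, from -0.76 to -0.30, whereas Dhcr7, Ebp, Tm7sf2, Fdps, Pmvk and Stard4 did not pass, at -0.16 to 0.20.

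In the fatty acid branch 7 of 13 genes were lower and 1 higher. Elovl6, which elongates palmitate, was at 10.3 and 10.5 FPKM in Pax7 NoTag cells, against 19.5 and 20.5 FPKM in Pax7 Q+GL+ cells, a difference of -0.88 ± 0.09 (SE, adjusted p = 1.34e-05, limma). Scd2 was at 218 and 239.9 FPKM in Pax7 NoTag cells, against 381 and 399.9 FPKM in Pax7 Q+GL+ cells (-0.77). Fasn was at 69.0 and 71.6 FPKM in Pax7 NoTag cells, against 110.2 and 112 FPKM in Pax7 Q+GL+ cells (-0.66). None of these 3 overlapped with any of the other 10 libraries. Fads2, Me1, Acsl3 and Scd1 were also lower, and the gene that was higher was Elovl5, with 75.2 and 74.9 FPKM in Pax7 NoTag cells and 54.4 and 60.2 FPKM in Pax7 Q+GL+ cells (0.39 ± 0.08, SE, adjusted p = 0.00246). Acly, Acss2, Acaca, Acacb and Fads1 did not pass, at -0.24 to 0.19.

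Of the regulators Insig1 alone was lower in Pax7 NoTag cells, at 98.9 and 100.3 FPKM, against 152 and 162 FPKM in Pax7 Q+GL+ cells (-0.65, adjusted p = 9.39e-05, limma), while Srebf2, Srebf1, Scap and Insig2 were at -0.13 to -0.04. Among the other pathway genes, 7 of 14 fatty acid oxidation genes were higher and none lower, beside 36.9% of all genes that were higher. Leaving out 1 library at a time kept 18 to 21 of the 22: Acat2, Lss and Scd1 did not pass without the first Pax7 NoTag or the second Pax7 Q+GL+ library, and Sc5d did not without the second Pax7 NoTag library or either Pax7 Q+GL+ library.

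**Figure D5:**
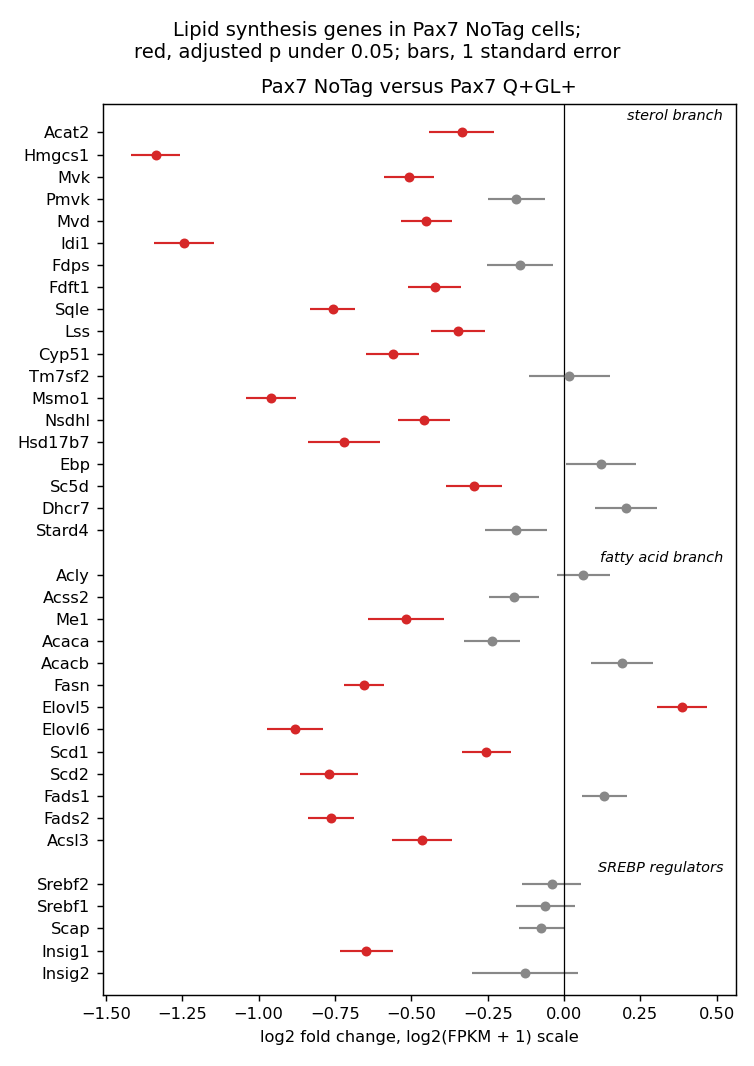
Log2 difference of each gene in Pax7 NoTag against Pax7 Q+GL+ cells (points, with 1 SE as bars), with red for an adjusted p under 0.05. Hmgcs1 at -1.34 and Idi1 at -1.24 lie farthest left, Elovl5 at 0.39 is the red point right of 0, and the regulators other than Insig1 lie near 0.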

How the data were processed

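Strand-specific paired-end RNA-Seq of rRNA-depleted total RNA from AtT-20 pools was deposited as 1 table of 16385 genes for 12 libraries used here, 2 for each of 6 groups. The values are FPKM made by the authors, who trimmed reads with Trimmomatic, aligned them with TopHat2 against GRCm38 (mm10) and its Ensembl annotation and quantified genes with HOMER. The versions of these 3 tools for the RNA-Seq reads and HOMER's strand setting are not given in the sources used here. A further 4 columns of values per sample, 2 headed AtTNeo (by name the study's control cells) and 2 headed AtTPax7, matched no labelled sample and were not used. The table holds no counts, so the depth of each library is unknown, no counting interval is given, and the count model that the study's methods name was not run.

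Values were taken as log2(FPKM + 1), so fold changes of low genes are understated. The 12578 genes that reached 1 FPKM in 2 or more libraries entered 1 limma-trend fit (limma 3.58.1, robust, statmod 1.5.0, R 4.3.3) with 1 coefficient per group over the 12 libraries. A gene passed at a Benjamini-Hochberg adjusted p under 0.05 over all genes tested. There were 11 comparisons between groups, 3 of them added after the data were seen, and 1 test across the 5 groups other than Pax7 NoTag. Many comparisons share a group, and their values are not independent. On simulated data for Pax7-465 against Pax7 Q+GL+ cells with all 12578 genes, 95 of 100 genes changed by 1 on the log2 scale and 64 of 100 changed by -0.5 were recovered, with 3 false among 162 calls. The simulated noise was independent between genes, with no shift shared within a library, so these rates need not hold for the data.

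The genes and lists were chosen with earlier results of these data known. All 37 genes are accounted for, and genes of the wider lists are named where they passed, up to 4 per list and comparison, apart from some that are not reported here. An exon of another gene overlaps 5 of the 37 genes on the same strand and 10 on the opposite strand, and near-identical stretches of Scd1 and Scd2 could share reads. Alternatives were quantile normalization, no filter, a pseudocount of 0.1, smaller sets of libraries in the fit, the replicate number as a block, leaving out each library and, added after the data were seen, median centring. Descriptions and plots used matplotlib 3.10.9, numpy 2.4.6 and pandas 2.3.3 under Python 3.11.15, and promoter sequences were those of RefSeq.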

Additional observations from a re-analysis of the deposited data

How the results depend on the processing

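Counts below are of the 37 genes past the test. Quantile normalization gave 7 in Pax7 Q-GL- against Pax7 Q-GL+ cells, 7 in Pax7 Q-GL- against Pax7 Q+GL+, 9 in Pax7 Q-GL- against Pax3, 13 in Pax7-465 against Pax7 Q+GL+, 7 in Pax7-465 against Pax3, 5 in Pax7-465 against Pax7 Q-GL+, 1 in Pax3 against Pax7 Q-GL+ and 17 across the 5 groups. Median centring, chosen after seeing the data, gave 2, 4, 7, 9, 5, 4, 1 and 11 in the same order. Without the filter on low values the count was 0 in Pax7 Q-GL- against Pax7 Q+GL+ and 0 in Pax7-465 against Pax7 Q-GL+. With only the groups compared in the fit it was 0 in Pax7-465 against Pax7 Q+GL+ and 0 in Pax7-465 against Pax7 Q-GL+, and with the 10 libraries other than Pax7 NoTag it was 1 and 0. Leaving out 1 library at a time gave 0 to 0 in Pax7 Q-GL- against Pax7 Q+GL+, 0 to 2 in Pax7 Q-GL- against Pax3, 0 to 1 in Pax7-465 against Pax7 Q+GL+, 0 to 0 in Pax7-465 against Pax7 Q-GL+, 2 to 3 in Pax7-465 against Pax3 and 2 to 7 across the 5 groups. A fit with 1 library left in a group assumes that it varies like the other groups. The cause of these moves was not tested. No result reversed. Among values of single genes under the alternatives, 89 of 143 stayed past the test and 54 did not in the comparisons among the other groups, against 211 and 9 of 220 in Pax7 NoTag against Pax7 Q+GL+.

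With the replicate block the count in Pax7-465 against Pax7 Q-GL+ was 1, and across the 5 groups it was 4. Replicate differences of the groups correlated at -0.158 to 0.173 over 15 pairs of groups, 2 of them over 0.1. The highest value was between Pax3 and Pax7-465. No pairing by replicate number was assumed in the main fit, and these correlations cannot show whether some libraries were prepared together. With 2 libraries per group and an unknown depth, differences smaller than those called here may have been missed.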

Other observations

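A few genes of the wider lists passed in Pax7 Q-GL- cells. Against Pax3 cells 1 of 8 other sterol synthesis genes, 1 of 15 genes of cholesterol uptake, storage and efflux and 2 of 20 other fatty acid synthesis genes did, where 4.33% of all genes passed. Por, the reductase that feeds electrons to cytochrome P450 enzymes such as Cyp51, was higher in Pax7 Q-GL- than in Pax3 cells by 0.58 ± 0.10 on the log2 scale (SE, adjusted p = 0.00593, limma), and Vldlr, a lipoprotein receptor, by 0.47 ± 0.11 (adjusted p = 0.0273). Cpt1a, which admits fatty acids to mitochondria for oxidation, was lower in Pax7 Q-GL- than in Pax7 Q-GL+ cells, at -0.53 ± 0.12 (adjusted p = 0.0315), the 1 of 14 fatty acid oxidation genes that passed there, where 4.17% of all genes passed. Lpin1, a phosphatidate phosphatase of triglyceride synthesis, was higher in Pax7 Q-GL- cells by 0.34 ± 0.08 against Pax7 Q-GL+ cells (adjusted p = 0.0403) and by 0.36 ± 0.08 against Pax3 cells (adjusted p = 0.0313). These comparisons share the Pax7 Q-GL- libraries. Abcg1 was higher in Pax7 Q+GL+ than in Pax7 Q-GL+ cells by 0.51 ± 0.10 (adjusted p = 0.0302), 1 of 15 genes of its list where 0.962% of all genes passed.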
